A study of Mus musculus with 6 samples.

Results

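The genes described here are 37 mouse genes known to be imprinted, chosen by symbol. Of these, 23 had a row in the table, which lists 25416 genes. The other 14 (Peg12, Ascl2, Peg10, Snurf, Dlk1, Plagl1, Cdkn1c, Ndn, H19, Snrpn, Meg3, Sgce, Magel2 and Igf2) had no row there and were not analysed here. The values come from AML12, a hepatocyte line derived from a mouse that carried a transgene for human TGF alpha, so that all 6 libraries share this origin. The siNC group (n = 3) received scrambled RNA and the siSetdb1 group (n = 3) received an siRNA against Setdb1, each at a labelled amount of 50 (written as nm), and polyadenylated RNA was sequenced after 72 h. The labels do not state that replicates were separate cultures. P-values therefore measure only how much these samples vary, and that variation may be technical.

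An imprinted gene is transcribed mainly from the copy inherited from 1 parent, and the choice is set by DNA methylation at control regions that is laid down in the egg or sperm. In the embryo these methylated regions are bound by the zinc finger protein ZFP57, which brings in TRIM28 and the histone H3 lysine 9 methyltransferase SETDB1, while DNMT1 copies the methylation at each division. Many imprinted genes control fetal growth and placental supply, and many are turned down in liver after birth. From this general knowledge 26 of the genes were classed as paternally expressed and 10 as maternally expressed. Gnas was kept apart, because its alternative first exons are used from different parental copies and its main transcript from both in most tissues. The files hold no allele counts, so every value below is the sum of both parental copies. The question the comparison addresses is whether RNA levels of paternally and maternally expressed genes differed when Setdb1 mRNA was reduced.

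Values are FPKM, read counts scaled by exon length and library total, so that levels can be compared between genes. The libraries held 16790582 to 17835060 reads. Setdb1 stood at 8.41, 8.54 and 9.43 FPKM in siNC and at 4.29, 4.21 and 3.29 FPKM in siSetdb1. Of 16 hepatocyte markers, Krt8, Krt18 and Hnf4a were well above 0, Cps1 and Tat were near 0, and Apoa2, Cyp2e1 and Cyp3a11 had no row. Of the 10 tested, 3 fell: Ttr from 27.5 to 7.02 FPKM, Trf from 23.8 to 8.67 FPKM and Cebpa from 0.716 to 0.311 FPKM. Only 1 rose, Krt18, from 1630 to 2010 FPKM. Among all 12846 tested genes 8.27% fell and 6.87% rose. Alb (means 7.93 in siNC and 2.61 FPKM in siSetdb1), Apoa1 (22.9 and 8.38 FPKM) and Apob (7.83 and 10.3 FPKM) did not pass. Of 6 biliary markers, Epcam had no row, and Krt19 was also high, at 1300 and 1350 FPKM. Among the 5 tested, 2 rose (Krt7 from 154 to 218 FPKM, Sox9 from 4.95 to 9.26 FPKM) and 1 fell (Spp1 from 220 to 115 FPKM). Markers of endothelial cells summed to 0.067 to 0.122 FPKM in siNC and 0.129 to 0.193 FPKM in siSetdb1, those of fibroblasts and stellate cells to 0.688 to 0.714 and 0.84 to 1.22 FPKM, and those of macrophages to 4.75 to 6.64 and 2.39 to 3.17 FPKM, nearly all from Cd68, with Ptprc near 0. Whether these shifts had a part in the results below was not tested. The library siNC replicate 1 stood apart from the other siNC libraries, at -26.7 against -11.7 and -10.8 on the principal component that held 54.8% of the variance.

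Promoters of 3 genes are shown because the results turn on them: Igf2r is the member that changed, Airn is its antisense repressor, and Peg3 is the most abundant member. Each is the stretch of 250 bases before the RefSeq start, taken from RefSeq on GRCm38.p6, with CpG dinucleotides, the sites of DNA methylation, in capitals.
Igf2r (chr17:12769707-12769956, minus strand): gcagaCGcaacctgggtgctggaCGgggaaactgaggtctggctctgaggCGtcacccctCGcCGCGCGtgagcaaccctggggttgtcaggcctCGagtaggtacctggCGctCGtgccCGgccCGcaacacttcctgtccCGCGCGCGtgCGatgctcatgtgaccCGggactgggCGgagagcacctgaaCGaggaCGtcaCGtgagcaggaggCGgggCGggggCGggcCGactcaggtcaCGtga
Airn (chr17:12741061-12741310, plus strand): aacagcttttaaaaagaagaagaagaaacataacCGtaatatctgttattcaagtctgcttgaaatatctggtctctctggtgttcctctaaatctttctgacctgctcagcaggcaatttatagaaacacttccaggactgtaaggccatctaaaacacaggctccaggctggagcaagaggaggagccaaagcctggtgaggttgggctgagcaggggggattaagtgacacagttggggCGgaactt
Peg3 (chr7:6730420-6730669, minus strand): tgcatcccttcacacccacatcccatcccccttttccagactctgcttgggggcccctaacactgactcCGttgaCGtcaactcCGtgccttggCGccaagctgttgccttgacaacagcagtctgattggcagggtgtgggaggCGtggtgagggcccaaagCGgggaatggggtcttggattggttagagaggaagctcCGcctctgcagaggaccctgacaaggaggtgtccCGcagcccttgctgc
The Igf2r stretch held 27 CpGs and had a GC content of 69.2%, the Airn stretch held 2 CpGs (45.6% GC) and the Peg3 stretch 8 (60.4% GC). The median over all 32851 RefSeq promoter windows, which run from 250 bases before to 50 after a start, was 7 CpGs, and the windows of Igf2r, Airn and Peg3 held 34, 3 and 13. Sequence further downstream was not counted, so these numbers do not describe whole control regions. The start of Usp29 lies 146 bases from that of Peg3 on the other strand, so these genes are read in opposite directions out of the Peg3 stretch.

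ZFP57 is known to bind the letters TGCCGC when their CpG is methylated. A search of both strands found them in a promoter window of 7 of the 21 members that have a row in the table and a RefSeq window, and in 13.1% of all 27025 genes with a window. A match is a description of the letters and does not show binding. The sites are given so that the letters can be set beside the levels of these genes. The first match in each gene's window is in capitals with up to 10 bases on either side, and GCGGCA is the motif on the other strand.
Mest (chr6:30737800-30737823, plus strand): ccttgcccGCGGCAttaacacatg
Grb10 (chr11:12037381-12037406, minus strand): gtgcggggagGCGGCAggaagggaag
Nnat (chr2:157560095-157560120, plus strand): caccggggctGCGGCAttgcgcccag
Zim1 (chr7:6696437-6696462, minus strand): aagtcatcccGCGGCAttccactccg
Nap1l5 (chr6:58907135-58907160, minus strand): gccattcactTGCCGCgagccgcgaa
Mcts2 (chr2:152686898-152686916, plus strand): gccTGCCGCagcttggcgc
Zdbf2 (chr1:63200193-63200218, plus strand): gcgcatccatTGCCGCcgctttgcgg
Of these 7 genes, Mcts2 was the only one with values high enough to be tested. YY1, a factor known to bind at the Peg3 control region, was searched for with GCCATNTT on both strands, which was found for Mkrn3 and Gab1 and for 6.96% of all genes with a window. The Igf2r, Airn, Peg3 and Usp29 windows held neither motif. These windows end 50 bases after a start, and sequence beyond them, such as the rest of a control region, was not searched.

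Few of the imprinted genes were abundant in these cells. Peg3, a zinc finger gene that is expressed from the paternal copy and acts in growth and maternal behaviour, had the highest level, with a mean of 35.7 ± 7.4 (SD, n = 3) FPKM in siNC and rank 1573 of all listed genes by mean FPKM. Mcts2, a retrocopy of the translation factor gene Mcts1, followed at 15.7 ± 0.54 FPKM. Impact, an inhibitor of the kinase GCN2, stood at 6.56 ± 1.6 FPKM, Gab1 at 5.55 ± 0.19 FPKM and Inpp5f at 4.41 ± 0.61 FPKM. Impact and Gab1 differed by less than the SD of Impact in siNC, as Igf2r and Airn did by less than that of Airn and Zrsr1 and Usp29 by less than that of Zrsr1. Igf2r was the only maternally expressed member above 0.5 FPKM, at 2.69 ± 0.37 FPKM. A total of 10 members reached the level needed for the test, which was at least 0.5 FPKM in 3 or more libraries. They were 8 paternally expressed genes, the maternally expressed Igf2r, and Gnas.

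**Figure D1:**
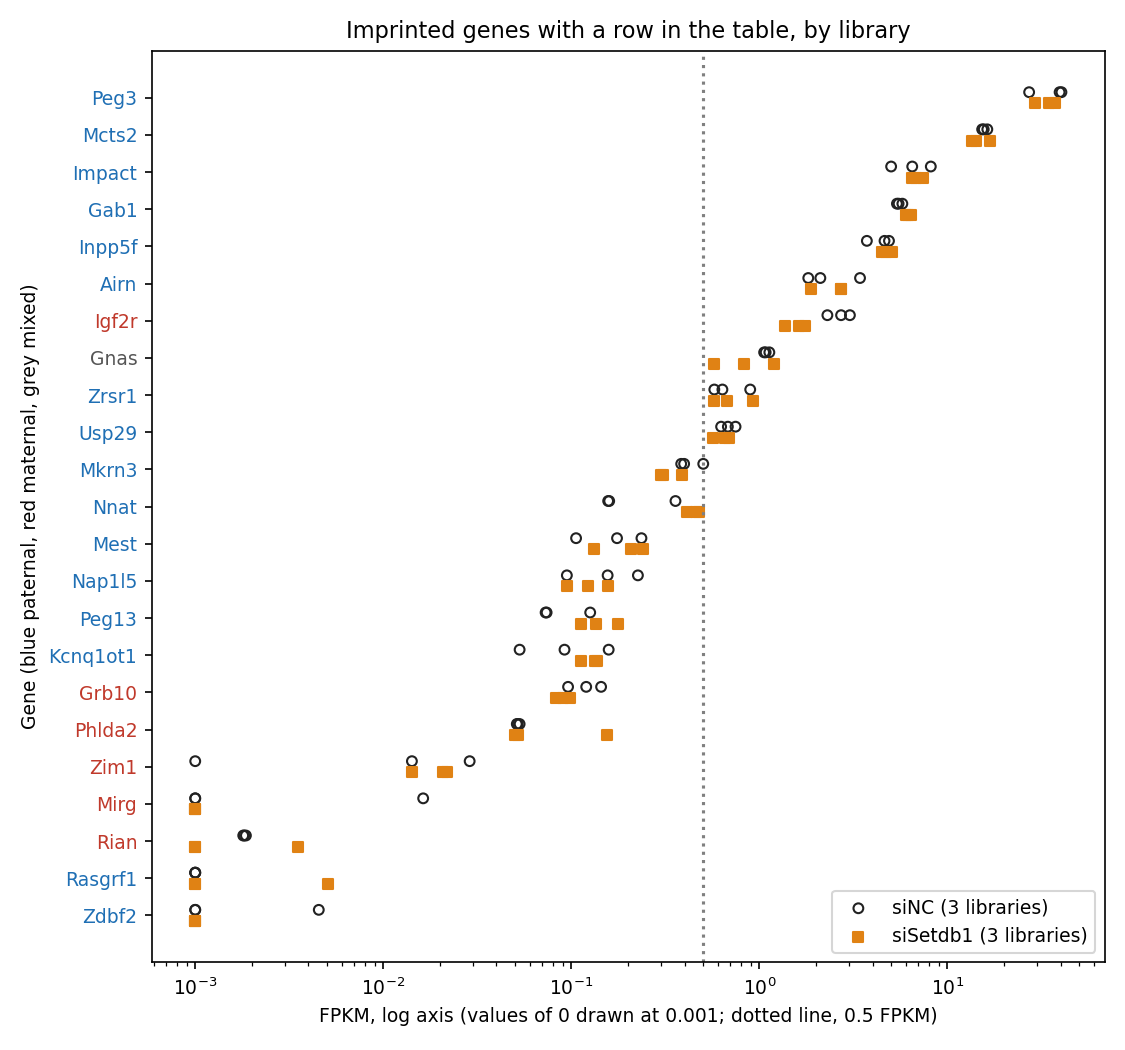
FPKM on a log axis for the 23 imprinted genes with a row in the table, 1 point per library (open circles siNC, squares siSetdb1), with gene names coloured by parental class. Peg3 and Mcts2 lie highest, 10 genes lie to the right of the dotted line at 0.5 FPKM in at least 3 libraries, and the groups of Igf2r do not overlap.

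Igf2r fell in the knockdown libraries, and it was the only imprinted gene that passed the test. It encodes the receptor that carries lysosomal enzymes by their mannose 6-phosphate tag and clears the growth factor IGF2 from the cell surface, and in mouse it is expressed from the maternal copy. Igf2r (ENSMUSG00000023830) lies on chromosome 17 at 12682406 to 12769664 of mm10, on the minus strand. Its values were 2.72, 2.30 and 3.03 FPKM in siNC replicates 1, 2 and 3 and 1.75, 1.37 and 1.63 FPKM in siSetdb1 replicates 1, 2 and 3. Every siSetdb1 library was below every siNC library. The group means were 2.69 ± 0.37 and 1.58 ± 0.19 FPKM, so the level fell by 41.0%, with a difference in log2(FPKM + 1) of -0.51 (SE 0.11, 95% confidence interval -0.76 to -0.26, limma adjusted p = 0.0209). The values rest on 218 to 485 reads in a library, and on these reads the log2 fold change was -0.76 (limma-voom adjusted p = 0.00441). The call was lost without siNC replicate 3 (adjusted p = 0.0543), without siSetdb1 replicate 1, 2 or 3 (adjusted p = 0.0565, 0.0802 and 0.0555, limma) and with no filter on low values (adjusted p = 0.0596), all with a lower mean in siSetdb1. Among all 12846 genes tested, 15.1% passed and 8.27% fell, so that 1 of 10 members is close to the share among all genes.

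Airn, whose transcription from the paternal copy silences Igf2r on that chromosome, showed no such difference. This noncoding RNA (ENSMUSG00000078247) is read from chromosome 17 at 12741311 to 12860136 of mm10, on the plus strand, and starts inside Igf2r. The annotated spans share 28354 bases and no exon base. Some Igf2r exons lie within the Airn span, and no strand-marking step is described for these libraries. Reads of unspliced RNA in the shared span could therefore be counted for the other gene, and how many were was not tested. Airn stood at 1.82, 2.11 and 3.43 FPKM in siNC and at 2.72, 2.72 and 1.89 FPKM in siSetdb1. The groups overlapped throughout, with siNC replicate 1 the lowest and siNC replicate 3 the highest of all. The difference was 0.01 (SE 0.18, 95% confidence interval -0.42 to 0.45, limma adjusted p = 0.969), an interval wide enough to hold a change in either direction. Most Airn RNA is known to be unspliced, and the table counts only its annotated exons in polyadenylated RNA. Reads from its introns are not counted, and these values do not separate spliced from unspliced RNA.

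**Figure D2:**
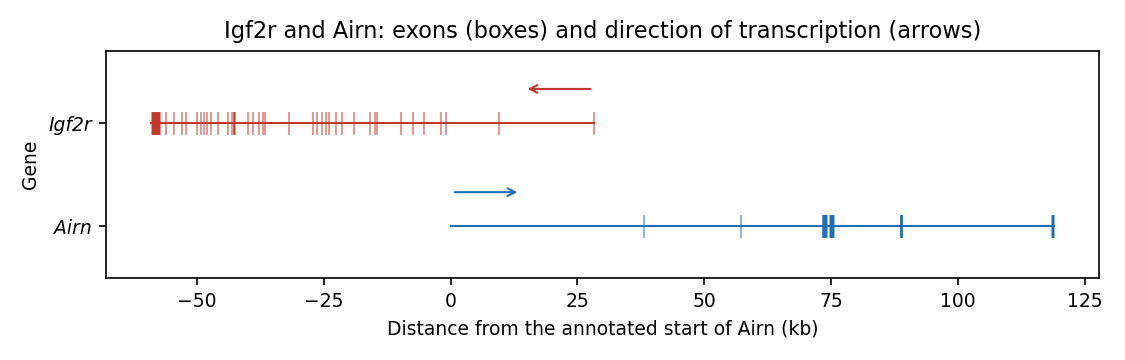
Annotated exons (boxes) of Igf2r and Airn against the distance from the Airn start in kilobases, with arrows for the direction of transcription. Airn starts within Igf2r and runs the other way, and no exon of one overlaps an exon of the other.

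None of the 8 tested paternally expressed genes passed, also at an unadjusted p under 0.05 (0 of 8, limma), and 0 of the 7 that could be run passed with limma-voom. Peg3 (ENSMUSG00000002265, chromosome 7, 6703892 to 6730431 of mm10, minus strand) had 27.2, 39.5 and 40.4 FPKM in siNC and 37.2, 34.5 and 29.4 FPKM in siSetdb1. The siNC replicate 1 value was the lowest of all 6, and the siSetdb1 libraries lay between it and the other siNC libraries. The difference was -0.07 (SE 0.16, 95% confidence interval -0.44 to 0.31, adjusted p = 0.806), and without siNC replicate 1 it was -0.25 (adjusted p = 0.132). Usp29, a ubiquitin protease gene read from the other side of the Peg3 promoter, was far lower, at 0.626, 0.680 and 0.747 FPKM in siNC and 0.570, 0.693 and 0.654 FPKM in siSetdb1. Its difference was -0.04 (95% confidence interval -0.25 to 0.17, adjusted p = 0.8). Zim1, the maternally expressed zinc finger gene beside Peg3, had 0 to 4 reads per library.

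Gab1, an adaptor that links growth factor receptors to ERK and PI3K signalling and is imprinted in placenta, had the largest mean difference of the tested members that were higher in siSetdb1. Its values were 5.50, 5.39 and 5.76 FPKM in siNC and 6.14, 6.38 and 6.05 FPKM in siSetdb1. The groups did not overlap, yet the difference of 0.13 (SE 0.07, 95% confidence interval -0.02 to 0.29, limma adjusted p = 0.211) did not pass. Inpp5f, a phosphoinositide phosphatase gene with an imprinted variant in brain, had 3.73, 4.63 and 4.89 FPKM in siNC and 5.07, 4.74 and 4.48 FPKM in siSetdb1, where siNC replicate 1 was again the lowest. The table gives 1 value for the gene, which does not separate its variants. Impact had 5.02, 6.5 and 8.16 FPKM in siNC and 6.83, 7.41 and 6.45 FPKM in siSetdb1, a difference of 0.08 (95% confidence interval -0.26 to 0.42, adjusted p = 0.734). For both genes the groups overlapped. Among the 10 tested members, siNC replicate 1 was the lowest siNC library for 5, against 36.7% of all tested genes.

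**Figure D3:**
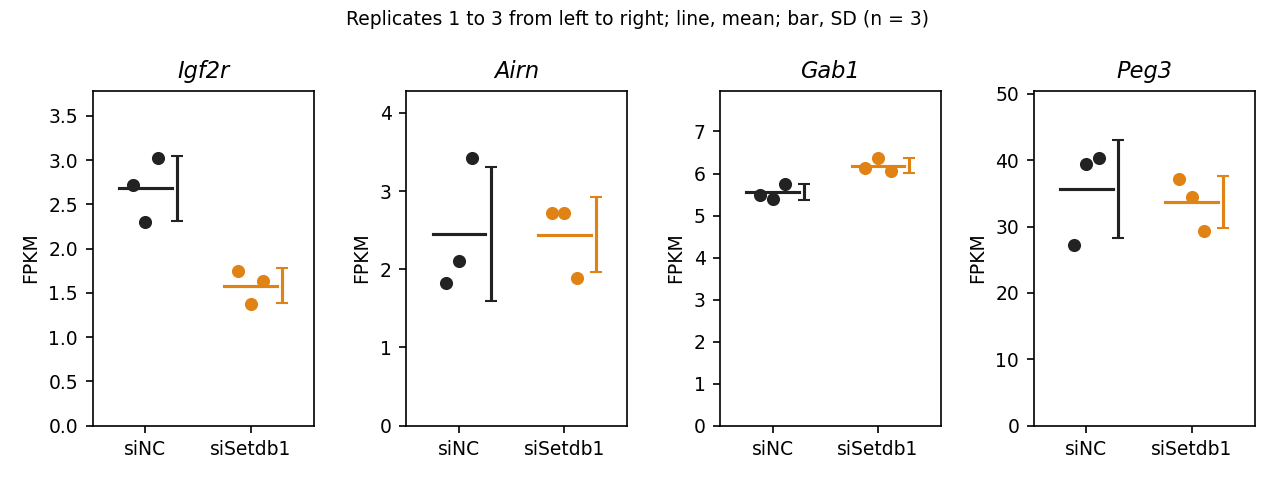
FPKM of Igf2r, Airn, Gab1 and Peg3 in each library, from 0, with replicates 1 to 3 from left to right, the mean as a line and the SD as a bar (n = 3). The groups are apart for Igf2r (lower in siSetdb1) and Gab1 (higher), and overlap for Airn and Peg3, where siNC replicate 1 is lowest.

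Several paternally expressed members lie inside another gene, and host and member were compared because they share a locus. Mcts2 lies inside H13, the gene of a signal peptide peptidase, on the same strand. It had 16.3, 15.6 and 15.3 FPKM in siNC and 14.2, 16.8 and 13.5 FPKM in siSetdb1, a difference of -0.09 (95% confidence interval -0.29 to 0.12, adjusted p = 0.535), and H13 had means of 15.1 ± 2.6 and 13.1 ± 0.63 FPKM. As Mcts2 is a copy of Mcts1, the split of short reads between them is uncertain. Zrsr1, a retrocopy of a splicing factor gene inside Commd1 on the other strand, had 0.636, 0.576 and 0.894 FPKM in siNC and 0.670, 0.574 and 0.924 FPKM in siSetdb1 (difference 0.02, 95% confidence interval -0.26 to 0.30, adjusted p = 0.94). Both groups of Zrsr1 spanned nearly the same range, and Commd1 had means of 0.780 ± 0.089 and 0.763 ± 0.18 FPKM. No strand-marking step is described for these libraries, and Zrsr1 and Commd1 share 412 exon bases, so reads there could belong to either.

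Nap1l5, a histone chaperone relative inside Herc3, had 3 to 7 reads per library (means 0.159 ± 0.066 and 0.125 ± 0.031 FPKM). Its host Herc3, a ubiquitin ligase gene, rose from 7.13 ± 0.29 to 9.19 ± 0.65 FPKM (difference 0.32, limma adjusted p = 0.0295), a call lost without siNC replicate 2 or 3 or siSetdb1 replicate 1 or 2 (adjusted p = 0.071, 0.0577, 0.121 and 0.1) and with no filter (adjusted p = 0.0749). Nnat, which encodes a small membrane proteolipid of the brain and lies inside Blcap, had 0.358, 0.157 and 0.159 FPKM in siNC and 0.411, 0.480 and 0.460 FPKM in siSetdb1. These groups did not overlap, but the values rest on 5 to 15 reads per library, 21 in siNC and 43 in siSetdb1 in all. Nnat was below the level for the test, and with no filter its adjusted p was 0.2 (limma). Blcap had means of 16.1 ± 1.7 and 17.4 ± 0.92 FPKM. Peg13, a noncoding RNA inside Trappc9, had 6 to 15 reads per library, with means of 0.0910 ± 0.030 and 0.141 ± 0.034 FPKM.

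Gnas, the gene of the stimulatory G protein alpha subunit, had 1.13, 1.06 and 1.08 FPKM in siNC and 0.574, 0.833 and 1.19 FPKM in siSetdb1. The siSetdb1 libraries lay on both sides of the closely spaced siNC values, and the difference was -0.18 (SE 0.13, 95% confidence interval -0.48 to 0.12, limma adjusted p = 0.378). The values did not come out as whole reads over the annotated exons. How reads were assigned among the transcripts is not given in the sources used here. Which transcripts the level and the difference cover is therefore not known. Its antisense RNA Nespas shares 988 exon bases with it, which are 8.83% of its exons. Gm20721, also on the other strand, shares 1469 exon bases (13.13%).

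**Figure D4:**
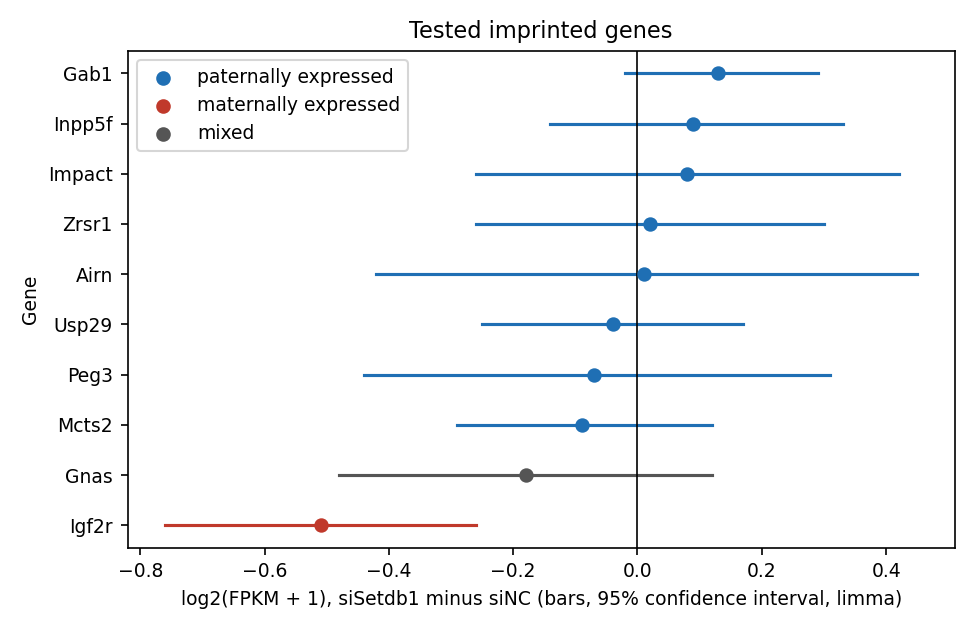
Difference in log2(FPKM + 1), siSetdb1 minus siNC, for the 10 tested imprinted genes, with 95% confidence intervals from limma and colours for parental class. The interval of Igf2r lies below 0 (-0.76 to -0.26) and the other 9 intervals include 0.

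The 13 listed members below the level for the test all had means under 0.5 FPKM in both groups. Mkrn3, a ubiquitin ligase gene of the Prader-Willi domain, was among the highest of them, with 0.398, 0.384 and 0.503 FPKM in siNC and 0.386, 0.299 and 0.308 FPKM in siSetdb1 from 13 to 22 reads per library. Mest, a hydrolase gene of the embryonic mesoderm, had 7 to 17 reads per library. It shares 912 exon bases, 23.12% of its exons, with Copg2 on the other strand, which had a mean of 13.5 FPKM. Reads there could belong to either gene. Kcnq1ot1, the noncoding RNA that silences its domain on the paternal copy, had 83, 149 and 253 reads in siNC and 220, 213 and 186 in siSetdb1 over an annotated length of 93092 bases. That is 0.101 ± 0.053 and 0.128 ± 0.014 FPKM, with siNC replicate 1 the lowest. Of the low maternally expressed genes, Grb10, an adaptor that restrains insulin receptor signalling, had 13 to 22 reads per library (means 0.120 ± 0.024 and 0.0906 ± 0.008 FPKM), and Phlda2, a brake on placental growth, had 1 to 3. Rasgrf1 had 0 reads in siNC and 1 in siSetdb1, Zdbf2 had 1 and 0, and Mirg had 2 and 0, and a count of 0 allows up to 3 reads in a library. Rian was listed at up to 0.00351 FPKM. For the untested members with at most 22 reads in a library, no change was detectable at this depth. Kcnq1ot1 had more reads than the tested Zrsr1 and was left out by its low FPKM over a long exon (adjusted p = 0.738 with no filter, limma). With no filter on low values, 0 of the 23 listed members passed (limma), 2 had an unadjusted p under 0.05, and these were Igf2r and Nnat.

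Set side by side, the classes could not be compared by a test, since 1 maternally expressed gene was high enough to be tested. Of 26 paternally expressed genes, 16 were listed and 8 tested, of which 0 rose and 0 fell. Of 10 maternally expressed genes, 6 were listed and 1 tested, and this gene, Igf2r, fell. Over the listed members the median difference in log2(FPKM + 1) was 0.01 for the paternally expressed genes (range -0.10 to 0.25) and 0.00 for the maternally expressed genes (range -0.51 to 0.04), against 0.00 over all 25416 listed genes. On this scale genes near 0 FPKM have differences near 0 whatever their fold change, so these medians do not show that the classes were alike. On log2 reads scaled by library total, over members with recovered reads, the medians were 0.097 (paternal) and -0.381 (maternal), mostly from few reads. Tested members entered with their limma-voom estimate, the others with a plain difference of group means. The mean was higher in siSetdb1 for 10 of 16 paternally expressed, 2 of 6 maternally expressed and 11783 of all 25416 listed genes. These counts include genes with as little as 1 read, such as Rasgrf1. The groups did not overlap for 3 of the 23 listed members (Igf2r, Gab1 and Nnat), while 24.8% of all listed genes had groups that did not overlap. Among tested members these were 2 of 10, against 39.2% of tested genes. Summed over each class, the paternally expressed genes other than Peg3 came to 34.9, 36.5 and 40.4 FPKM in siNC and 37.5, 40.6 and 35.4 FPKM in siSetdb1, which overlap. The maternally expressed genes summed to 2.93, 2.49 and 3.21 FPKM and to 2.00, 1.54 and 1.81 FPKM, nearly all of it Igf2r.

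Most genes on a list called imprint maintenance, which also holds DNA and histone demethylase genes, were present in these cells. Of 24 genes named by role, Dppa3 had no row, and Dnmt3b, Dnmt3l and Tet1 were too low to test. The other 20 were tested, of which 2 fell, 0 rose and 18 did not pass. Among all tested genes 8.27% fell and 6.87% rose. One of those that fell is the target of the siRNA. The median difference was 0.10 against -0.02 over all tested genes. At an unadjusted p under 0.05, 1 was higher, and 0 rose with limma-voom. Those that fell were Setdb1 itself (difference -0.995, adjusted p = 0.00183) and Ehmt2, which encodes the H3K9 methyltransferase G9a, from 41.8 ± 2.9 to 34.5 ± 1.1 FPKM (-0.27, adjusted p = 0.0468, limma). The Ehmt2 call was lost without any library but siNC replicate 3 (adjusted p from 0.0504 to 0.156), with median-ratio scaling (0.0814) and with no filter (0.106). Zfp57, the reader of methylated imprints, had 14.9, 13.6 and 17.4 FPKM in siNC and 19.6, 21.9 and 15.1 FPKM in siSetdb1 (adjusted p = 0.237). The groups overlapped. Trim28, which joins ZFP57 to SETDB1, had means of 92.1 ± 8.7 and 78.6 ± 2.0 FPKM (adjusted p = 0.105), and the H3K9 methyltransferase gene Ehmt1 7.91 ± 0.10 and 9.01 ± 0.53 FPKM (adjusted p = 0.144). The histone demethylase gene Kdm1b (8.63 ± 0.92 and 9.97 ± 0.47 FPKM), the DNA demethylase gene Tet2 (2.30 ± 0.87 and 3.09 ± 0.28 FPKM) and the chromatin remodeller gene Atrx (6.56 ± 3.1 and 9.52 ± 1.5 FPKM) did not pass either, with adjusted p = 0.181, 0.241 and 0.264.

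Other imprinted genes and neighbours of imprinted domains, in a list of 45, had 20 tested members, of which 5 rose, 0 fell and 15 did not pass. Among all tested genes 6.87% rose. The list was chosen with earlier results of these data known, so its count is a description and not a test against that share. When 1 library was left out at a time, 2 to 5 rose. At an unadjusted p under 0.05, 3 were lower, and 0 fell with limma-voom. Their median difference was 0.02. Tnfrsf23, a decoy receptor gene at the end of the Kcnq1 domain that is imprinted in placenta, rose most. It had 38.8, 35.5 and 44.5 FPKM in siNC and 109, 122 and 113 FPKM in siSetdb1 (difference 1.51, SE 0.09, adjusted p = 0.000474). The groups were far apart, and close relatives of Tnfrsf23 lie beside it, so that the split of reads among them is uncertain. Its neighbour Osbpl5, a lipid transfer gene, rose from 6.54 ± 0.53 to 8.77 ± 0.53 FPKM (0.37, adjusted p = 0.0239). That call was lost without siNC replicate 2 or siSetdb1 replicate 1, 2 or 3 (adjusted p = 0.0723, 0.0704, 0.0756 and 0.0799) and with no filter (0.0662). Phlda2 and Kcnq1ot1 of the same domain were among the genes too low to test.

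Ano1, a chloride channel gene on the same chromosome, had 34.9, 35 and 31.7 FPKM in siNC and 55.3, 53.7 and 52.8 FPKM in siSetdb1, and rose by 0.66 on the log2(FPKM + 1) scale (adjusted p = 0.00196). All siSetdb1 libraries were above all siNC libraries. Atp10a, a lipid flippase gene near the Prader-Willi domain, rose from 5.20 ± 0.35 to 6.70 ± 0.49 FPKM (0.31, adjusted p = 0.0403), and its adjusted p was 0.0542 to 0.14 when any 1 library was left out and 0.0964 with no filter. Ube3a, a ubiquitin ligase gene of that domain that is expressed from the maternal copy in neurons, had 1.59, 3.09 and 3.15 FPKM in siNC and 4.46, 4.45 and 4.21 FPKM in siSetdb1. It did not pass (adjusted p = 0.0607), with siNC replicate 1 far below the rest, and passed without that library (difference 0.38, adjusted p = 0.0143) and with length and GC trends removed (0.34, adjusted p = 0.0133). Ddc (7.21 ± 0.87 and 5.10 ± 1.1 FPKM) and Adam23 (4.97 ± 0.098 and 5.83 ± 0.035 FPKM) did not pass, with adjusted p = 0.0772 and 0.0805. On recovered reads Adam23 passed (0.23, limma-voom adjusted p = 0.0493), but under no other setting. With length and GC trends removed its difference was 0.071 (limma adjusted p = 0.554).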

How the data were processed

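RNA-seq of 6 samples was deposited as 1 table of values per gene. Per the submitters' processing notes, HISAT2 2.0.4, Bowtie2 2.2.5, RSEM 1.2.12, DESeq2 1.4.5 and build mm10 were used, with no role stated. The table names no unit. Its values were found to be FPKM computed by the authors before they were deposited: low values are whole multiples of 1 read over the GENCODE M21 exon length and 1 total per sample, and whole reads (tolerance 0.01) came out for 98.6% of genes. For Peg3, Gnas and Rian they did not, so no reads are given for these. Samples were grouped by title. The test covered the 12846 genes that reached 0.5 FPKM in 3 libraries. It was run with limma (version 3.58.1, R version 4.3.3) on log2(FPKM + 1), fitting only the group, with empirical Bayes variances that were trended and robust. The scale understates changes of low genes. P-values are two-sided, Benjamini-Hochberg adjusted over all genes tested, with a threshold of 0.05. Tested on simulated reads (median of 12682 genes), the fit found 55% of 1.5-fold and 94% of 2-fold changes, and 10.7% of its calls were false. The simulation changed 200 genes, none of them of low level, with the same fixed dispersion for all genes and no outlying library. These rates may therefore not hold for members that varied more, such as Peg3 and Airn, or that were lower, such as Zrsr1 and Usp29. Alternatives were another pseudocount, other filters, median-ratio scaling, limma-voom on recovered reads, removal of length and GC trends, a replicate block and each library left out, with the filter set on all 6 libraries. Members, classes and lists were chosen with earlier results of these data known. Members are named with values in each library where a group mean reached 0.5 FPKM or the test was passed, and from each list up to 8 genes with the smallest adjusted p. Nnat, Kcnq1ot1, Mkrn3 and the host genes were added after values were seen.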

Additional observations from a re-analysis of the deposited data

How the results depend on the processing

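With no filter on low values the call of Igf2r was lost (adjusted p = 0.0596, difference -0.51), so that 0 members and 0 maternally expressed members passed, 1 imprint maintenance gene fell and 2 other imprinted genes rose. Over all genes 890 then passed, 460 higher and 430 lower. The test then covers more genes. Leaving out 1 library at a time gave a difference of Igf2r between -0.587 and -0.443 (adjusted p 0.0282 to 0.0802), 0 to 1 members and 0 to 1 maternally expressed members called, 1 to 2 imprint maintenance genes lower, 2 to 5 other imprinted genes higher and 0 to 1 lower. Over all genes it gave 683 to 2176 calls, 355 to 1101 higher and 326 to 1075 lower, and a median of the paternally expressed members of -0.006 to 0.06. No paternally expressed member passed under any setting run. In the 122 refits of the 9 other tested members, 111 kept their direction and did not pass, and 11 turned direction, all on leaving out 1 library: Peg3 ranged from -0.246 to 0.031, Airn from -0.119 to 0.207, Zrsr1 from -0.066 to 0.096 and Impact from -0.072 to 0.232. With median-ratio scaling 1 imprint maintenance gene fell. With length and GC trends removed 1328 of all genes were higher and 2 other imprinted genes were lower. The median of the maternally expressed members was -0.041 when the pseudocount was 0.1. On log2 reads scaled by library total it was -0.381, and that of the paternally expressed members was 0.097. Both of the latter medians cover only members with recovered reads, and untested members were not fitted by limma-voom. Most of these genes have few reads.

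No label says that the replicate numbers join the samples. The deviations of same-numbered libraries had correlations of -0.157, 0.167 and -0.172, and siNC replicate 1 correlated best with siSetdb1 replicate 3 (0.283). With 3 libraries in a group, these values cannot settle whether the numbers pair the samples. With the replicate block 1015 genes passed, 480 higher and 535 lower, 1 imprint maintenance gene fell, 3 other imprinted genes rose, and Igf2r passed with an adjusted p of 0.0373. Ehmt2, Herc3 and Atp10a did not pass with the block (adjusted p = 0.104, 0.0839 and 0.0914). Depth limits the members with at most 22 reads in a library, where changes of a few reads cannot be told from counting error. Kcnq1ot1, with 83 to 253 reads, was left out by the filter on FPKM, not by its reads.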
